A study of Homo sapiens with 8 samples.

Results

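The peaks described here are the places where METTL3 was recovered with RNA in both LNCaP and PC3 cells. They were chosen by overlap: a LNCaP peak was selected when it shared at least 1 bp with a PC3 peak on the same chromosome and strand, and the PC3 peak it met was taken with it, with no filter on fold or p. The rule selected 557 of 2616 LNCaP peaks, which is 21.3% of that list, and 459 of 1033 PC3 peaks, which is 44.4%, or 1016 of 3649 peaks in all. With the largest p of the PC3 list applied to both lists, 145 of 389 LNCaP peaks (37.3%) and 162 of 1033 PC3 peaks (15.7%) overlapped, so the order of the shares depended on the p-values admitted. Of the full 557 and 459 shared peaks, those assigned to 1 gene lay on 204 protein-coding genes.

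RNA immunoprecipitation and sequencing (RIP-seq) was done in human prostate cancer lines: LNCaP, which responds to androgen, and PC3, which grows without it. The labels list 8 samples in 4 groups of 2 replicates: anti-METTL3 IP from LNCaP, input RNA from LNCaP, anti-METTL3 IP from PC3 and input RNA from PC3. No group carried a drug, knockdown or other treatment, all used the antibody Abcam ab195352, and LNCaP was grown with a higher share of serum than PC3. The deposited data are 1 peak list per line with no value per sample, so no value below has an error between replicates, the depth is unknown, and differences between the lines were not tested. An IgG pull-down named in the protocol was not analysed here.

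METTL3 is the methyltransferase that places N6-methyladenosine (m6A), the most common internal modification of messenger RNA. It acts with METTL14, which helps to bind the RNA, and WTAP, which holds the complex in nuclear speckles. m6A is typically placed within the DRACH sequence, often in long internal exons and near stop codons, and reader proteins then affect the splicing, translation and decay of the RNA. A RIP peak marks RNA recovered with the protein and does not by itself locate a methylated base.

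The sequences at the edges of the shared peaks could be read at annotated gene starts, and 5 are shown because both lines placed a peak edge on or near the start. Each is written on the strand of its gene, 5′ to 3′, from 80 bases before to 30 bases after the start (RefSeq, GRCh38.p14), and capitals mark the bases that lie inside the peaks of both lines. They are SRRM2 at chr16:2752558-2752667 on the plus strand, PRPF8 at chr17:1684838-1684947 on the minus strand, DIAPH1 at chr5:141618971-141619080 on the minus strand, ACTN4 at chr19:38647569-38647678 on the plus strand and KIF1C-AS1 at chr17:5020064-5020173 on the minus strand.
SRRM2: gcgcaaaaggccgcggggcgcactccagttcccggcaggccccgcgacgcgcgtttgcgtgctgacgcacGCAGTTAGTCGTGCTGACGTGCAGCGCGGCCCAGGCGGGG
PRPF8: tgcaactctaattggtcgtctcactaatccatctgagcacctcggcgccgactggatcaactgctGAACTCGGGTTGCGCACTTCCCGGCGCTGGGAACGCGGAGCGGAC
DIAPH1: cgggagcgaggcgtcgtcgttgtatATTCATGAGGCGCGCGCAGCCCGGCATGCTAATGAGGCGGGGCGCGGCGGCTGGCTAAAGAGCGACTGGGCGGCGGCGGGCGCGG
ACTN4: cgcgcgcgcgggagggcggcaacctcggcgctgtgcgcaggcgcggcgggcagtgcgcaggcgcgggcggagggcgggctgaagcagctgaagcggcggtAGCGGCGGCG
KIF1C-AS1: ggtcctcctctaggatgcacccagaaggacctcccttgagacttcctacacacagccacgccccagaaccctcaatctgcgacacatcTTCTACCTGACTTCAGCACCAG

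Shared peaks seldom covered a gene start. A start lay inside 9 of the 557 shared LNCaP peaks and 10 of the 459 shared PC3 peaks, compared with 81 of the 2059 other LNCaP peaks and 10 of the 574 other PC3 peaks. Overlapping peaks of both lines covered 9 starts. They were the starts of DIAPH1, PRPF8 and SRRM2, alternative starts of EIF4G1 and ACTN4, and starts of the uncharacterised RNAs LOC101926935, LOC105372709, LOC107984661 and LOC107987245. The EIF4G1 start covered was at chr3:184320263, while its gene span begins at 184314606.

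At DIAPH1, which encodes a formin that nucleates actin filaments, both lists gave the same 175 bp peak (chr5:141618881-141619055, minus strand). It ran from 55 bp before to 119 bp after the start. Its fold was 4.35 in LNCaP and 8.48 in PC3. At SRRM2, a scaffold protein of nuclear speckles, the peaks began 35 bp before the start in LNCaP and 10 bp before it in PC3, with folds of 6.64 and 6.53. At PRPF8, a core component of the spliceosome, both peaks began 15 bp before the start and ended 127 bp after it in LNCaP and 77 bp after it in PC3. The PRPF8 folds were 6.04 and 3.85. A second shared pair covered the same PRPF8 start on the plus strand (chr17:1684750-1684950 in LNCaP, 1684750 to 1684900 in PC3), with folds of 6.68 and 4.75, so both strands carried a shared peak there.

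**Figure D1:**
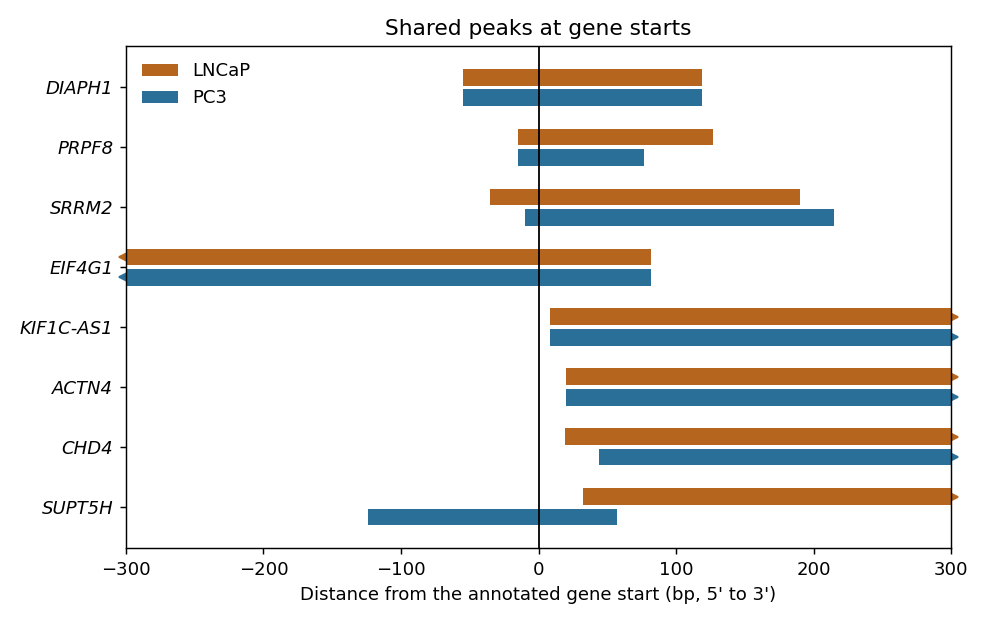
Distance of the bounds of overlapping LNCaP and PC3 peaks from an annotated start of 8 genes, in bp along the gene's direction. Bars span the peak, and an arrowhead marks a peak that runs beyond 300 bp. The starts drawn for EIF4G1, CHD4 and SUPT5H are alternative starts. At DIAPH1, PRPF8, EIF4G1, KIF1C-AS1 and ACTN4 the edge nearest the start was at the same base in both lists.

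Other shared peaks began just after an annotated start. Both lists placed the 5′ edge 20 bp after the first start of ACTN4, an alpha-actinin that crosslinks actin, and the peaks then ran for 57286 bp in LNCaP and 57361 bp in PC3 from that start. The 5′ edge was 8 bp after the start of KIF1C-AS1 in both lists, and 19 bp in LNCaP and 44 bp in PC3 after the start of CHD4, the remodeling ATPase of the NuRD complex. Both peaks of MDC1-AS1 began 49 bp after its start, and both peaks of ATXN7L3-AS1 began 41 bp after it.

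Motifs of the DRACH kind were searched on the gene strand in the 17 windows of 15 genes, each running from 250 bases before to 50 bases after a start, that a shared pair reached. Forms of 5 letters were counted without regard to overlap with one another. GGACT was present in 5 windows, GGACA in 7, GGACC in 7, AGACT in 6 and AAACT in 0, and 14 of 17 held at least 1 of these forms. Over all 34961 windows of the same length, the shares were 25.3% for GGACT, 25.4% for GGACA, 27.2% for GGACC, 20.98% for AGACT and 22.4% for AAACT, and 75.4% held at least 1. On either strand, GGACT was present in 8 of the 17 windows and in 44.1% of all windows. These windows lie mostly outside the RNA, and the letters of the peaks themselves were not searched.

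MicroRNA hairpins lay whole inside some shared peaks of both lists. The HUWE1 peak (chrX:53554913-53559530 in LNCaP, fold 6.62; 53554888 to 53559480 in PC3, fold 8.47, both on the minus strand) held the hairpins of MIR98 and MIRLET7F2. The mature 5p products are shown because they share their seed, bases 2 to 8, in capitals.
miR-98-5p: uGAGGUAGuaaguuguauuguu
let-7f-5p: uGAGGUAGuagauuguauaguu
MIR6819 lay in the MYH9 peak, with folds of 11.4 in LNCaP and 10.1 in PC3. Its 5p product has a different seed, in capitals.
miR-6819-5p: uUGGGGUGgagggccaaggagc
Peak spans include introns, so whether reads came from these hairpins is not given by the lists. METTL3 is also known to mark primary microRNA transcripts for processing.

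The shared peaks fell on 204 genes, which is 1.02% of 19974 protein-coding genes. Any LNCaP peak was present on 5.41% of genes and any PC3 peak on 1.79%. Both lists had a peak on 227 genes, and on 23 of these no peak was shared. A protein-coding gene held 542 of the shared LNCaP peaks and 442 of the shared PC3 peaks whole, 3 in each list lay within 2 genes, and 12 and 14 lay within none. On the 204 genes, 61.0% of all 888 LNCaP peaks and 67.8% of all 652 PC3 peaks were shared. In 41 genes every peak of both lists was shared, and 80 genes had exactly 1 shared peak in each list.

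The genes with the most shared peaks included genes of cytoskeletal and RNA-binding proteins. The 10 leading genes held 121 shared LNCaP peaks, 22.3% of those assigned, and 90 shared PC3 peaks, 20.4%. DYNC1H1, the heavy chain of cytoplasmic dynein (chromosome 14), had the most. Of its peaks, 11 of 13 in LNCaP and 16 of 18 in PC3 were shared. Their folds ran from 3.74 to 17.9 in LNCaP, with a median of 6.96, and from 4.04 to 10.5 in PC3, with a median of 6.65. The highest LNCaP fold, 17.9, was on a 76 bp peak (chr14:102033282-102033357) whose PC3 partner had a fold of 7.20.

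MKI67 encodes the proliferation marker Ki-67, and all 17 LNCaP and all 5 PC3 peaks on it were shared. In the stretch at chr10:128104562-128110441, 11 LNCaP peaks met 2 PC3 peaks. Median folds on MKI67 were 7.25 and 7.65.

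PLEC, the cytolinker plectin (chromosome 8), had 14 of 16 LNCaP and 9 of 15 PC3 peaks shared. Its median folds were 8.54 and 9.15. MACF1, a plakin that joins actin to microtubules, had 8 of 23 LNCaP peaks and 8 of 9 PC3 peaks shared. Thus most of the MACF1 peaks of LNCaP had no PC3 partner while nearly all of those of PC3 had a LNCaP partner. FLNA, which crosslinks actin, had 13 of 15 LNCaP and 8 of 16 PC3 peaks shared.

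SRRM2 had 13 of 16 LNCaP and 9 of 9 PC3 peaks shared, each PC3 peak in a stretch of its own, with median folds of 5.16 and 7.94. The shared pair over the SRRM2 start reaches beyond the gene span and is not in these counts. PRRC2A, an RNA-binding protein described as an m6A reader, had 12 of 12 and 6 of 6 shared, with median folds of 5.05 and 6.97. HUWE1, a giant HECT ubiquitin ligase on chromosome X, had 8 of 10 and 9 of 11 shared. Its shared folds ran from 5.08 to 26.6 in LNCaP and from 7.18 to 12.3 in PC3.

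**Figure D2:**
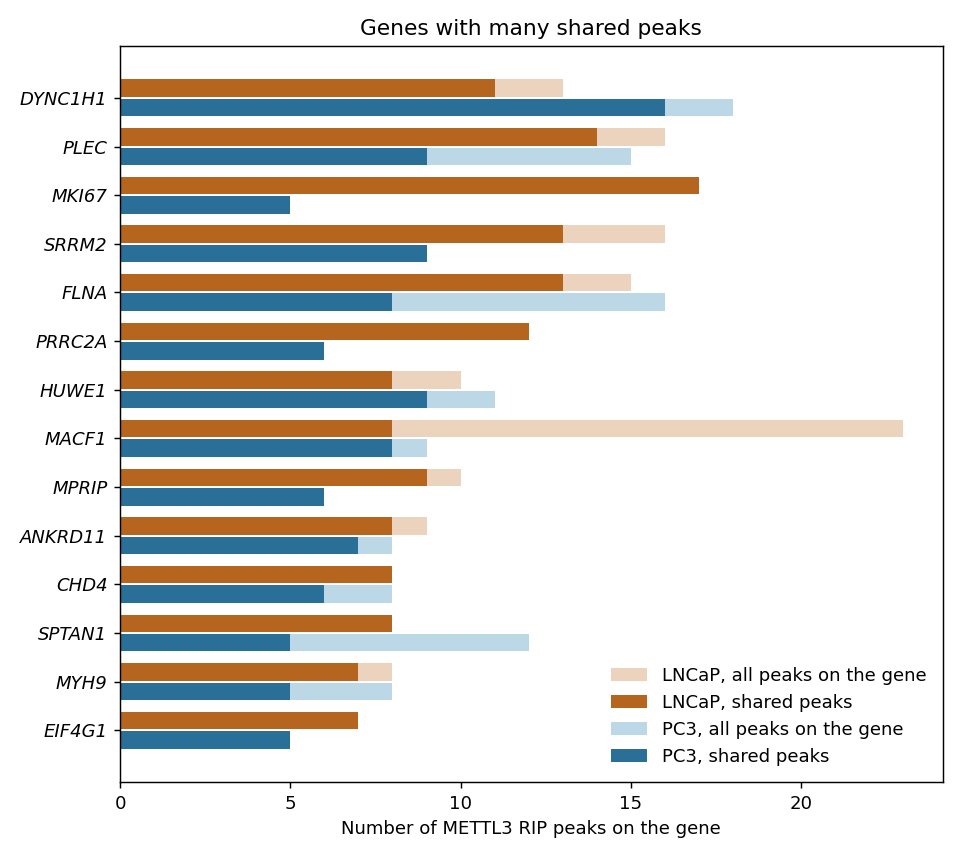
Number of METTL3 RIP peaks per gene for genes with many shared peaks; dark bars are shared peaks and the full bar all peaks of that list on the gene, LNCaP above PC3. MKI67 and PRRC2A are shared in full, while 8 of the 23 LNCaP peaks on MACF1 are.

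The bounds of shared peaks varied widely among the 624 overlapping pairs. Both bounds were identical in 44 pairs (7.05%). The LNCaP peak lay inside the PC3 peak in 290 pairs (46.5%), the PC3 peak lay inside the LNCaP peak in 149 (23.9%), and the peaks were staggered in 141 (22.6%). The overlap covered a median of 25.2% of the joint span over all pairs, and 54.0% over the 410 best-overlapping pairs, in which each peak is the other's largest overlap. Joined into continuous stretches, the shared peaks gave 398, of median length 3085.5 bp. Of these, 272 held 1 peak of each list, 76 held several LNCaP peaks and 1 PC3 peak, 30 held 1 LNCaP and several PC3 peaks, and 20 held several of both.

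Nested peaks were present at SMARCC2, a core subunit of the SWI/SNF complex. In the stretch over it, of 27699 bp on chromosome 12, 7 LNCaP and 4 PC3 peaks met, and the outermost peak had identical bounds in both lists, with folds of 4.01 in LNCaP and 4.21 in PC3. DSP, the desmosomal plakin desmoplakin, went the other way. There a LNCaP peak at chr6:7579999-7582771 with a fold of 3.96 met 5 PC3 peaks with folds of 4.65 to 7.78.

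Bounds that differed often lay a whole number of 25 bp steps apart. Starts differed in 520 pairs, and in 230 of these (44.2%) by a multiple of 25 bp; among whole numbers, 4% are such multiples. Ends differed in 523 pairs, and 237 (45.3%) lay a multiple of 25 bp apart. The peaks at the limit of the rule followed the same steps: all 21 pairs that shared at most 25 bp shared exactly 1 bp. Just outside the rule, 5 LNCaP peaks lay 24 bp from a PC3 peak, on MACF1, RNF40 (2 peaks), LAMA3 and PLEC, with folds from 3.74 to 15.1. The pairs of 1 bp included MKI67, CHD4, ATN1, APLP2 and SMARCC2.

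The 23 genes with peaks in both lists and no overlap had a median gap of 7302 bp. CLSTN1 was nearest, with 49 bp between its peaks and folds of 9.21 in LNCaP and 3.77 in PC3. ANKRD17 had a gap of 74 bp. ADAR, the enzyme that edits adenosine to inosine in RNA, had peaks 9817 bp apart, with folds of 5.97 and 5.73.

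The folds are the authors' values, made separately for each list, and are given as a description. The median fold was 5.64 over the shared LNCaP peaks and 5.16 over the other 2059. In PC3 the order was the other way, 5.49 over the shared peaks and 5.87 over the other 574. The highest shared fold was 202.6 in LNCaP and 19.0 in PC3. Among the other peaks the highest fold was 236.6 in LNCaP and 139.4 in PC3. The median p was 0.000487 for shared and 0.00169 for other LNCaP peaks, and 1.16e-10 and 2.50e-08 in PC3.

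With each list cut into 5 equal groups by p, from smallest to largest, the percent of LNCaP peaks that were shared was 36.1%, 21.03%, 19.3%, 14.5% and 15.5%. Among PC3 peaks it was 62.8%, 52.9%, 38.2%, 37.9% and 30.4%. In 5 groups by fold, it ran from 17.2% to 27.2% in LNCaP, and in PC3 it was 32.9% in the group of highest fold and between 44.4% and 49.5% in the others. By span it rose in PC3 from 31.4% of the shortest group to 56.0% of the longest, whereas in LNCaP it was 13.9% and 12.6% at these ends and at least 23.9% between them. Of the 136 LNCaP peaks over 50000 bp, 2 were shared, and of the 15 such PC3 peaks, 7 were. The LNCaP list went up to a p of 0.0178 and that of PC3 to 1.59e-05, so the lists did not admit peaks of the same strength.

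At the 410 best-overlapping pairs Spearman's rho of the folds was 0.235 and Pearson's r of log2 folds was 0.175, across pairs that share libraries and genes and are not replicates. Over the 44 pairs with identical bounds, rho was 0.031. The LNCaP fold was the larger in 228 pairs and the PC3 fold in 182. In 248 pairs (60.5%) the folds were within 1.5 times of each other. A fold of at least 10 in both lines was present in 11 pairs.

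**Figure D3:**
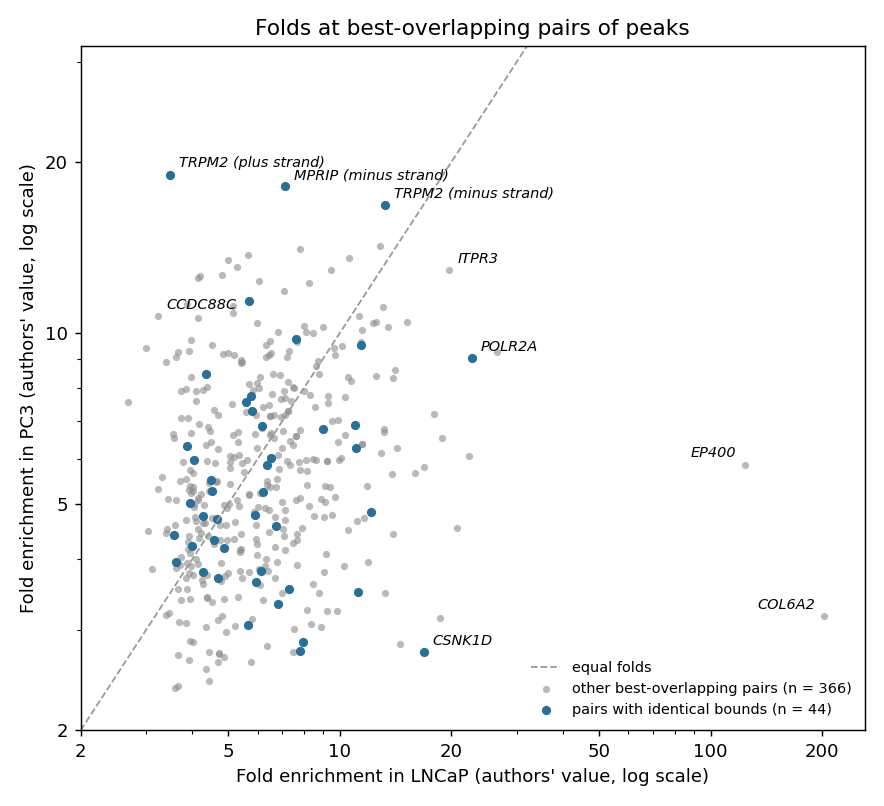
Fold enrichment in LNCaP (x axis) and PC3 (y axis) for the 410 best-overlapping pairs of shared peaks, both on log scales; blue points are the 44 pairs with identical bounds and the dashed line marks equal folds. COL6A2 (202.6 and 3.17) and EP400 (123.9 and 5.87) lie far to the right of the other pairs.

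The pairs with the largest lower fold included TRPM2 on the minus strand, described with the opposite-strand peaks. ITPR3, an IP3-gated calcium channel, had a fold of 19.7 in LNCaP (chr6:33675789-33677621) and 12.9 in PC3, where the peak was longer on both sides. CCDC88C, the Wnt regulator Daple, had folds of 12.8 and 14.2 at a PC3 peak of 51 bp inside a LNCaP peak. SPTAN1, the alpha-II spectrin of the membrane skeleton, had folds of 13.1 and 11.1. SRRM2 had folds of 10.6 and 13.6, at peaks that overlapped by 251 bp. On POLR2A, the largest subunit of RNA polymerase II, they were 12.3 and 10.4, and on MYH9, a non-muscle myosin heavy chain, 11.4 and 10.1. KMT2D, a histone H3K4 methyltransferase, had the same bounds in both lists (chr12:49043733-49044838), with folds of 11.4 and 9.52. MAP1B, BCL9L and MYO18A had folds between 9.001 and 10.2 in both lists. HUWE1 (11.3 and 10.7), PLEC (12.5 and 10.5), DYNC1H1 (15.1 and 10.5) and MPRIP (13.5 and 10.2) belonged to the same 15 genes.

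Other pairs differed widely between the lists. COL6A2, a chain of collagen VI, had folds of 202.6 in LNCaP and 3.17 in PC3 (chr21:46122145-46124713 in LNCaP), a ratio of 63.9. The same PC3 peak met another LNCaP peak of COL6A2 with a fold of 4.83. EP400, a remodeling ATPase, had folds of 123.9 and 5.87, a ratio of 21.1. CSNK1D, a casein kinase, had identical 76 bp bounds with folds of 16.8 and 2.75. That pair lay on the plus strand, and the promoter table gave no strand for CSNK1D, so whether it lies opposite to the gene was not checked. DDX10, an RNA helicase, had folds of 18.6 and 3.15, and EZR, the membrane-actin linker ezrin, had 14.5 and 2.83. The ratio ran from 5.11 to 6.12 for CSNK1D, DDX10 and EZR.

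Other pairs had the larger fold in PC3. TRPM2, a calcium-permeable cation channel, had folds of 3.49 in LNCaP and 19.0 in PC3 on the plus strand, a ratio of 5.44. CCDC88C had a second pair with folds of 3.23 and 10.7. MYO9B, a myosin with a RhoGAP domain, had folds of 3.002 and 9.41, and CHD4 had 4.13 and 12.5. No error is available for any of these folds.

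The 44 pairs with identical bounds spanned 51 to 27699 bp, with a median of 2993 bp, and 14 spanned at most 300 bp. Their folds were within 1.5 times of each other in 26 pairs. LARP1, a binder of 5′ terminal oligopyrimidine mRNAs, had folds of 5.77 in LNCaP and 7.74 in PC3 (chr5:154786649-154793932). DBN1, the actin-binding protein drebrin, had 3.62 and 3.96. SLC38A1, a glutamine transporter, had 6.81 and 3.34, and SLCO5A1, an organic anion transporter family member on chromosome 8, had 4.88 and 4.18. SMARCA4, the ATPase of the SWI/SNF complex, had 10.99 and 6.89. PPP1R9B, the phosphatase-binding protein spinophilin, had 4.57 and 4.33, on the strand opposite to the gene. At POLR2A a 51 bp peak had folds of 22.7 and 9.03. A plus-strand pair of 17307 bp with folds of 5.90 and 4.78, at chr17:44198881-44216187, was not assigned to 1 protein-coding gene and began 41 bp into ATXN7L3-AS1. A plus-strand pair at chr20:62642469-62656449, likewise not assigned, had 6.72 and 4.57.

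Shared peaks on the strand opposite to their gene were few, and most had identical bounds in both lists. Where the promoter table gave the gene's strand, 10 of 437 shared LNCaP peaks (2.29%) and 10 of 359 shared PC3 peaks (2.79%) lay on the opposite strand, with Wilson intervals of 1.25 to 4.16% and 1.52 to 5.05%. The share was 2.61% of the other LNCaP peaks and 3.23% of the other PC3 peaks. They lay on the same 10 genes in both lists: CHD4, DYNC1H1, KIF1C, MDC1, MPRIP, NUMA1, PPFIA1, PPP1R9B, SVIL and TRPM2. Peaks that reach beyond the span of a gene, such as the plus-strand pair over the PRPF8 start, were not counted. The bounds were identical in 8 of the 10, compared with 22 of the 427 shared LNCaP peaks on the gene's own strand (5.15%). The opposite-strand peaks were also longer: the median was 8220.5 bp in LNCaP against 826 bp on the gene's strand, and 8052.5 bp in PC3 against 1501 bp.

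Of these 10, 7 lay within an annotated long noncoding RNA of that strand, such as TRPM2-AS, SVIL-AS1, CHD4-AS1 and NUMA1-AS1. In 9 of 10, a shared peak on the gene's strand overlapped them. MPRIP, which binds myosin phosphatase, had folds on the opposite strand of 7.10 in LNCaP and 18.1 in PC3 (chr17:17169020-17185548), and at most 5.91 and 6.64 in the overlapping peaks of its own strand. In TRPM2 the opposite strand had folds of 13.2 and 16.8 (chr21:44416652-44423462), against 3.49 and 19.0 on its own. In SVIL, the actin-binding supervillin, the opposite strand had 5.68 and 11.4, against 3.86 and 11.3. In NUMA1, a spindle protein, it had 4.38 and 3.42, against 11.8 and 5.38. The libraries were stranded, per the labels, and how much signal could pass from one strand to the other was not tested.

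**Figure D4:**
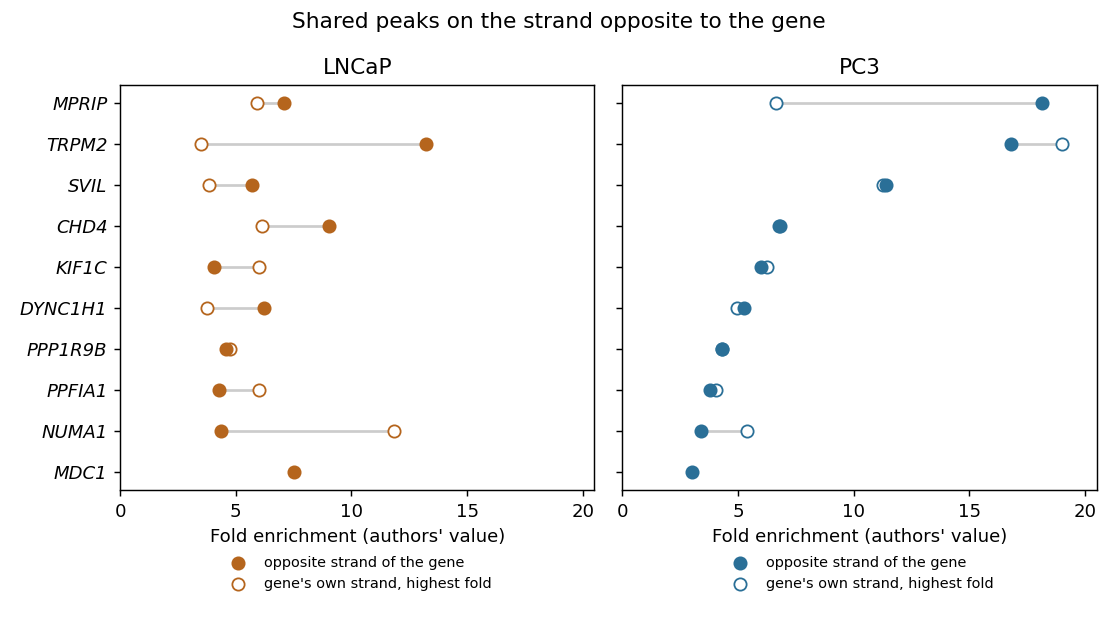
Fold enrichment of the shared peak on the strand opposite to the gene (filled) and the highest fold among overlapping shared peaks on the gene's own strand (open) for 10 genes, LNCaP left and PC3 right. MPRIP shows the widest gap in PC3 (18.1 and 6.64), and MDC1 has no overlapping shared peak on its own strand.

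Along the gene, shared peaks lay towards the 3′ end in both lists. Position was taken in the direction of the peak's own strand, since the strand of the gene was known for 437 of 542 LNCaP and 359 of 442 PC3 shared peaks. With the gene span cut into 3 equal parts, the last part held 284 of 542 shared peaks in LNCaP (52.4%, with an interval of 48.2 to 56.6%). In PC3 it held 236 of 442 (53.4%, 48.7 to 58.0%). Over the 427 and 349 shared peaks on the known strand of their gene, it held 50.4% and 53.0%. Among the other peaks it held 44.0% in LNCaP and 58.6% in PC3, so the shared peaks were the higher in LNCaP and the lower in PC3. With 10 equal parts, the last held 16.1% of shared and 10.2% of other LNCaP peaks, and 14.0% of shared and 24.8% of other PC3 peaks. The first of the 10 held 2.21% and 2.49% of the shared peaks, and 5.50% and 4.14% of the others. Spans include introns, and many peaks come from the same gene, so these shares are not independent.

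**Figure D5:**
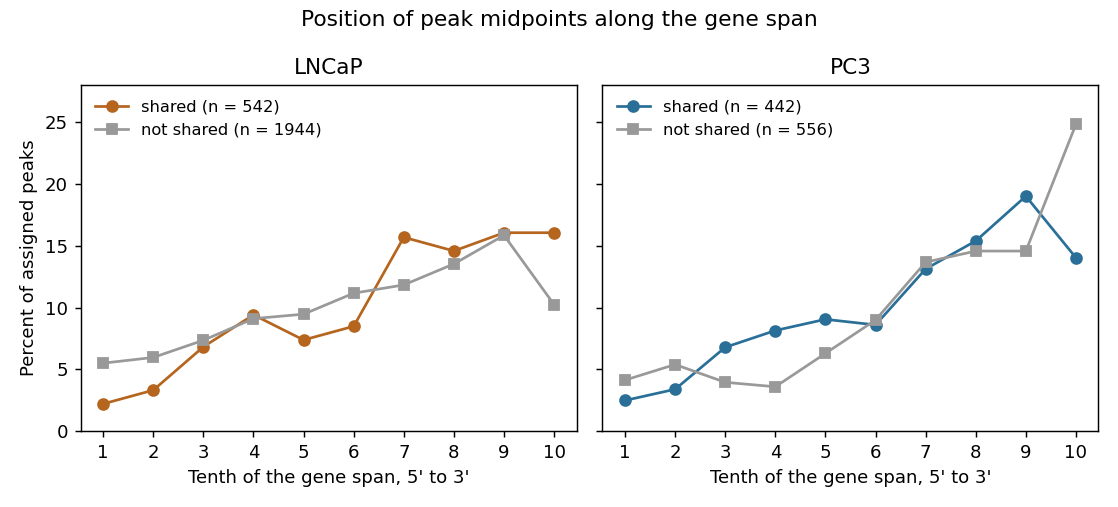
Percent of peaks assigned to 1 gene whose midpoint fell in each of 10 equal parts of the gene span, from 5′ to 3′, LNCaP left and PC3 right; coloured lines are shared peaks and grey lines the other peaks of the list. The last part holds 24.8% of the other PC3 peaks and 14.0% of the shared ones.

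By chromosome, sharing was highest on X among LNCaP peaks, with 32 of 67 shared (47.8%, Wilson interval 36.3 to 59.5%). HUWE1 held 8 and FLNA 13 of these 32 peaks. Chromosome 12, with CHD4 and SMARCC2, had 54 of 149 LNCaP peaks (36.2%) and 39 of 62 PC3 peaks (62.9%) shared. Chromosome 15 had 2 of 76 LNCaP peaks (2.63%) and 2 of 22 PC3 peaks shared.

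Gene families were followed in 18 lists with 218 symbols, of which 48 (22.02%) carried a shared peak, beside 1.02% of all protein-coding genes. The lists were written with earlier results of these peak lists known, so this share is no independent evidence. Among chromatin remodelers, 9 of 18 carried a shared peak: CHD3, CHD4, CHD6, CHD8, EP400, SRCAP, SMARCA4, ARID1A and BPTF. CHD4 had 8 of 8 LNCaP and 6 of 8 PC3 peaks shared, and SMARCA4 had 7 of 7 and 4 of 8. CHD2 and SMARCA2 had LNCaP peaks only, and INO80 and ARID1B had PC3 peaks only. Of the KMT2 enzymes and histone acetyltransferases, 3 of 9 were shared (KMT2B, KMT2D and KMT2E).

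In the cytoskeleton, 4 of 8 filamins, talins and alpha-actinins (FLNA, TLN1 and ACTN4 among them) and 3 of 7 plakins (PLEC, MACF1 and DSP) carried a shared peak. TLN1, which links integrins to actin, had folds of 3.62 in LNCaP and 9.08 in PC3. Of 16 myosins 5 were shared, MYH9, MYH10, MYO6, MYO9B and MYO18A, and of 10 spectrins and ankyrins 2 were, SPTAN1 among them. Of 20 motor, centrosome and spindle genes 7 were: DYNC1H1, KIF1B, KIF1C, CEP250, NUMA1, MAP1B and MAP4. CEP250, which links centrosomes, had 11 LNCaP peaks and 1 shared. The shared CEP250 pair lay on the minus strand, and the promoter table gave no strand for the gene, so whether it lies opposite to the gene was not checked. AHNAK and AHNAK2, giant scaffold proteins, had peaks in PC3 only.

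In the splicing and RNA decay list 4 of 14 were shared, SRRM1, SRRM2, PRPF8 and SNRNP200. The last is a spliceosomal helicase with 4 of 6 LNCaP and 2 of 2 PC3 peaks shared. In the extracellular matrix list 5 of 20 were shared. FN1, fibronectin, had 4 of 13 LNCaP peaks and all 4 PC3 peaks shared, with median folds of 6.92 and 5.67. COL6A1 had 3 of 4 and 2 of 2, with median folds of 5.60 and 3.23, and LAMC1 had 2 of 9 and 2 of 5. LAMA3 had 1 shared pair with folds of 11.9 and 3.95. HUWE1 and UBR4 were the 2 of 10 giant ubiquitin ligases, and ITPR3 and RYR2 the 2 of 6 calcium release channels. The RYR2 peak had identical bounds, with folds of 7.95 and 2.86.

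In some lists no gene had a shared peak, which in lists of this size is near the 1.02% over all genes and is no result about them. None of the 20 m6A writers, erasers and readers listed carried one (PRRC2A was not in that list), and ZC3H13, FTO and HNRNPA2B1 had peaks in LNCaP only. None of 17 prostate and androgen response genes did, and TMPRSS2, FOLH1 and SLC45A3 had LNCaP peaks and no PC3 peak. None of 6 PIKK kinases, 8 mucins or 16 FAT, CELSR, LRP and Notch genes did. MUC5AC and MUC6 had peaks in both lists at separate places. Of the markers of the lines, 3 of 6 LNCaP markers (FOLH1 and TMPRSS2 among them) had a LNCaP peak and none had a PC3 peak. Of the PC3 markers, 0 of 5 had a peak in either list. Over all protein-coding genes, 5.41% had a LNCaP peak and 1.79% a PC3 peak. The absence of peaks on so few markers is therefore no result about them. A gene without a listed peak may be unexpressed, unbound or under the threshold, and the lists hold no expression to tell these apart.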

How the data were processed

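RNA recovered with METTL3 and input RNA were sequenced from 2 cell lines, 2 replicates per group. The submitters' processing notes name fastp, STAR 2.5.3a, bedtools, deepTools and the build hg38, with no role or order. The peak caller, filters and handling of replicates are not given in the sources used here. The authors deposited 1 peak list per line with a linear fold (ratio) per peak, per the file headers, whose denominator is not named. The authors' deposited p-value and FDR are per peak, and the deposited score (not used) is the negative log2 of that FDR. These values were taken as given and were not rescaled between the lists. Folds of overlapping peaks were set side by side across the lists as a description only. P-values of both lists entered the common p limit and the p product used to choose identical pairs.

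Overlap required 1 bp on the same chromosome and strand. A gene was given to a peak that lay whole, on either strand, within exactly 1 protein-coding gene of the autosomes or X (RefSeq, GRCh38.p14). Gene strand came from the promoter table, which gave it for 15812 of 19974 genes and for 170 of the 204 with a shared peak. Wilson intervals (95%) reflect counting error alone. Named genes are the 10 with most shared peaks, the 15 with the largest lower fold, the 12 identical pairs with the smallest p product, the 5 with the largest fold ratio in each direction (FDR at most 0.05), shared members of the gene lists and genes whose start is covered. Some genes that the rule names are not reported here. Other genes were chosen after their values were seen. Members and lists were chosen with earlier results of these data known. Overlap and assignment were tested on simulated data. Python 3.11.15, pandas 2.3.3 and scipy 1.17.1 were used.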

Additional observations from a re-analysis of the deposited data

How the results depend on the processing

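Of 36 alternatives, 23 moved no value beyond the set limits (1.5 times for a count) and 13 did. Requiring 50% of both peaks left 223 LNCaP and 223 PC3 peaks on 130 genes, and the LNCaP median fold was 6.15. Applying the largest PC3 p to both lists left 145 of 389 and 162 of 1033 peaks on 88 genes, which turned the order of the shares, with a LNCaP median fold of 7.65. A minimum fold of 4 left 135 genes. These rules admit fewer peaks by construction. The rank correlation of the folds was 0.031 over the 44 identical pairs, where the cause was not tested. The last of 5 parts of the gene held 32.1% of LNCaP and 33.0% of PC3 peaks, a smaller part by construction. Placing peaks by their 3′ end put 58.6% of PC3 peaks in the last of 3 parts. An overlap of at least 2 bp, chosen after seeing the data, left 545 and 449 peaks on 200 genes, and taking only peaks on the known strand of their gene, also chosen after seeing the data, put 50.4% and 53.0% in the last of 3 parts. No paired analysis was possible because the lists hold no values per sample, and for the same reason no replicate could be left out, edgeR was not run and depth limits could not be given. Motifs inside peaks were not searched, since no genome sequence was used.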

Other observations

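POM121 and POM121C, near-identical nuclear pore genes, both carried shared peaks. How reads common to both were counted is not given in the sources used here. POM121 had 1 of 1 LNCaP and 1 of 6 PC3 peaks shared, with folds of 3.41 and 4.52. POM121C had 2 of 2 and 1 of 9 shared, with a median fold of 7.78 in LNCaP and a fold of 14.1 in PC3. AKAP17A, in a pseudoautosomal region of X and Y, had 2 of 2 LNCaP peaks and 1 of 1 PC3 peak shared, with a median fold of 5.65 in LNCaP and a fold of 5.08 in PC3. The amyloid precursor APP had 2 of 3 LNCaP and 1 of 3 PC3 peaks shared, in a stretch of 89826 bp. The chromatin regulator ANKRD11 had 8 of 9 and 7 of 8 shared, with median folds of 6.66 and 7.14. These genes were chosen after their values were seen.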
